A study of Mus musculus with 10 samples.

Results

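The nuclear-encoded genes of respiratory complexes II to V were compared between Ptbp1-deficient and wild-type (WT) mouse dendritic cells. Members were all genes of the count table whose mouse symbol begins with Sdh, Uqcr, Cox4, Cox5, Cox6, Cox7, Cox8 or Atp5, without symbols that contain -ps. There were 49 of them among 19178 genes: 8 of complex II, 8 of complex III, 16 of complex IV and 17 of complex V (ATP synthase). Of these, 48 are annotated as protein coding, and Cox6c2 is annotated as a processed pseudogene. By role, 38 encode subunits that cells of most tissues use, 4 encode tissue-restricted isoforms of complex IV subunits, 6 encode assembly or accessory factors and 1 is the pseudogene.

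RNA-seq libraries had been made of dendritic cells labelled as Ptbp1 deficient (n = 5 libraries) or WT (n = 5 libraries). The mice were 8 to 10 weeks old in both groups. The product of Ptbp1, a polypyrimidine tract-binding protein, regulates splicing and the fate of mRNAs. Dendritic cells present antigen to T cells. The labels do not give the tissue the cells came from, the sex of the mice, the part of Ptbp1 that was altered or the cells it was altered in. Whether the 5 libraries of a group stem from 5 different mice is not stated either; p-values therefore cover the spread between libraries, which may be technical. In such bulk samples, fewer cells of a type and less RNA per cell cannot be told apart.

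The respiratory chain of the inner mitochondrial membrane passes electrons from NADH and succinate to oxygen and pumps protons. Complex II (succinate dehydrogenase) takes electrons from succinate and is also an enzyme of the citric acid cycle; it pumps no protons, and all its subunits are nuclear encoded. Complex III (ubiquinol-cytochrome c reductase) passes electrons to cytochrome c, complex IV (cytochrome c oxidase) passes them to oxygen, and complex V uses the proton gradient to make ATP. In complexes III to V the mitochondrial genome also encodes some subunits. Dendritic cells draw on both glycolysis and oxidative phosphorylation, and the balance between them is known to shift with activation and subset.

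The labels were checked on Ptbp1, which had 75.0, 73.4, 74.6, 73.2 and 75.7 CPM in deficient replicates 1 to 5, against 259, 296, 312, 309.6 and 294 CPM in WT replicates 1 to 5 (CPM, counts scaled to the TMM-adjusted library size; log2 fold change -1.98, adjusted p = 1.9e-09). Every deficient library lay below every WT library. In the deposited FPKM values the loss of Ptbp1 was smaller, at 28.7 ± 6.02 FPKM in deficient libraries, against 65.3 ± 2.80 FPKM in WT libraries. There its log2 fold change was -1.18 (adjusted p = 2.7e-05, limma on log2(FPKM + 1)). Counts assigned to genes totalled 61759378 to 92697815 in the deficient libraries and 50516163 to 66153758 in the WT libraries. The lowest member in any library, Cox4i2, had 3 counts. All 6 dendritic cell markers were present in both groups: Itgax (2067 to 2317 CPM in deficient libraries, against 1294 to 1649 CPM in WT libraries; log2 fold change 0.51, adjusted p = 8.9e-05) and Zbtb46 (log2 fold change 0.25, adjusted p = 0.038) were higher, Ccr7 was lower (log2 fold change -0.36, adjusted p = 0.049), and Flt3, H2-Ab1 and Cd74 did not pass. Markers of other kinds also moved with genotype, and the part of all these markers in the results was not tested. The called counts of these lists stand against 21.9% of all genes tested called higher and 23.1% called lower. Of 12 cell cycle genes 12 were higher, with a summed level of 1428 to 1532 CPM in deficient libraries and 637 to 892 CPM in WT libraries. Of 7 cDC1 markers 6 were higher and none lower (2440 to 3461 CPM in deficient libraries and 1209 to 1555 CPM in WT libraries), and of 7 cDC2 markers none was higher and 7 were lower (759 to 968 CPM in deficient libraries and 1236 to 1350 CPM in WT libraries). Macrophage markers were lower for 8 of 12 (427 to 903 CPM in deficient libraries and 1178 to 3327 CPM in WT libraries), plasmacytoid markers for 4 of 5 (76.5 to 82.6 CPM in deficient libraries and 112 to 304 CPM in WT libraries) and B cell markers for 5 of 6 (67.7 to 90.8 CPM in deficient libraries and 76.9 to 500.1 CPM in WT libraries), whereas NK cell markers were higher for 4 of 6 (62.2 to 111 CPM in deficient libraries and 1.84 to 36.9 CPM in WT libraries). Of 4 T cell, 4 neutrophil and 4 erythroid markers none was called. Their summed levels were the highest of all libraries in WT replicate 5, at 31.2, 367 and 73.4 CPM. No marker of these lists with a row in the count table was at 0 in any library. This could not be otherwise, because all gene rows hold at least 2 counts in every library. The macrophage marker Vsig4 had no row and is not among the 12. Deficient replicates 1 and 2 had the lowest macrophage sums, 441 and 427 CPM, and WT replicates 1 and 5 the highest, 2076 and 3327 CPM, so results that rest on these libraries are also given without them.

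Most of the 49 genes were called higher in Ptbp1-deficient cells, each by less than 2-fold, and the exceptions lay mainly in complex II and among the accessory genes and restricted isoforms. All 49 passed the filter on low counts. At a Benjamini-Hochberg adjusted p under 0.05 in edgeR's quasi-likelihood test over 18248 genes, 38 were higher and 4 lower, against 21.9% of all genes tested called higher and 23.1% called lower. The 4 lower genes were Sdhb, Sdhaf1, Cox6b2 and Atp5s. The 7 that did not pass were Sdha, Sdhaf2, Sdhaf3, Uqcrc1, Cox4i2, Cox6a2 and Cox7a1. Across the members the median log2 fold change was 0.37, with a range of -0.70 to 0.87, against a median of -0.026 over all genes tested. In 36 members every deficient library lay above every WT library, and in 2, Sdhb and Atp5s, every deficient library lay below. Over all genes tested, 17.2% separated upward and 16.2% downward.

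By complex, 3 of 8 complex II members were higher and 2 lower (median log2 fold change 0.031). In complex III 7 of 8 were higher and none lower, with a median of 0.38. In complex IV 12 of 16 were higher and 1 lower (median 0.37), and in complex V 16 of 17 were higher and 1 lower (median 0.38). Among the 34 widely used subunits of complexes III to V, 33 were higher and none lower, with Uqcrc1 the exception. Among the 11 assembly factors, restricted isoforms and the pseudogene, 3 were higher and 3 lower (27.3% each), with a median of 0.013. Over all genes tested 21.9% were called higher and 23.1% lower. The shares of these 11 genes, and the 25.0% of complex II members that were lower, were near that background. In the deposited FPKM values, tested with limma on log2(FPKM + 1), 36 of the 46 members listed were higher and 3 lower, against 20.3% and 27.2% of all genes listed.

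**Figure D1:**
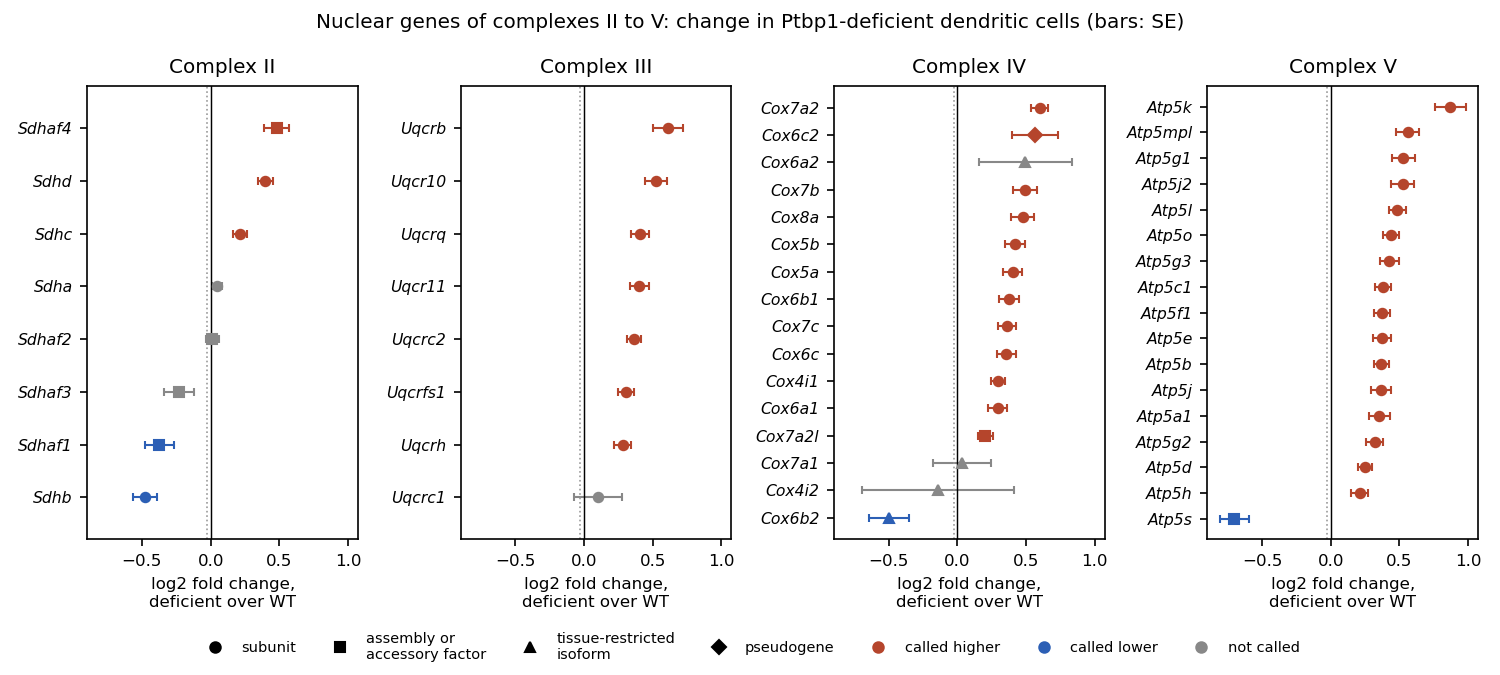
Log2 fold change (Ptbp1-deficient over WT, x axis) with its SE for each of the 49 genes, by complex, with symbol shape for the role and colour for the edgeR call; the dotted line is the median of all genes tested. Complexes III to V lie mostly between 0.2 and 0.6, and complex II runs from Sdhb at -0.48 to Sdhaf4 at 0.48.

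The 34 widely used subunits of complexes III to V stood higher in each deficient library than in any WT library by their median. Set against each gene's WT mean, their median level was 1.28, 1.19, 1.39, 1.40 and 1.32 times that mean in deficient replicates 1 to 5, and 0.892, 0.996, 1.06, 1.07 and 0.980 times in WT replicates 1 to 5. The lowest deficient libraries were replicates 2 and 1, and the lowest WT library was replicate 1, and the groups did not overlap. Their summed level was 4045, 3782, 4426, 4365 and 4193 CPM in deficient replicates 1 to 5, against 2839, 3176, 3411, 3409 and 3137 CPM in WT replicates 1 to 5. Without WT replicates 1 and 5, 38 members were higher and 5 lower; without deficient replicates 1 and 2 the counts were 38 and 4. Fitted with a covariate for the macrophage score (the mean log2 level of the macrophage markers), the counts were 36 and 4. The macrophage sums did not overlap between genotypes, so this fit cannot fully separate the score from genotype. It is therefore no test of the part of those markers. The share of counts outside genes ran from 17.4% to 18.9% in deficient libraries and from 17.2% to 22.2% in WT libraries, and with it as a covariate 39 members were higher and 4 lower.

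**Figure D2:**
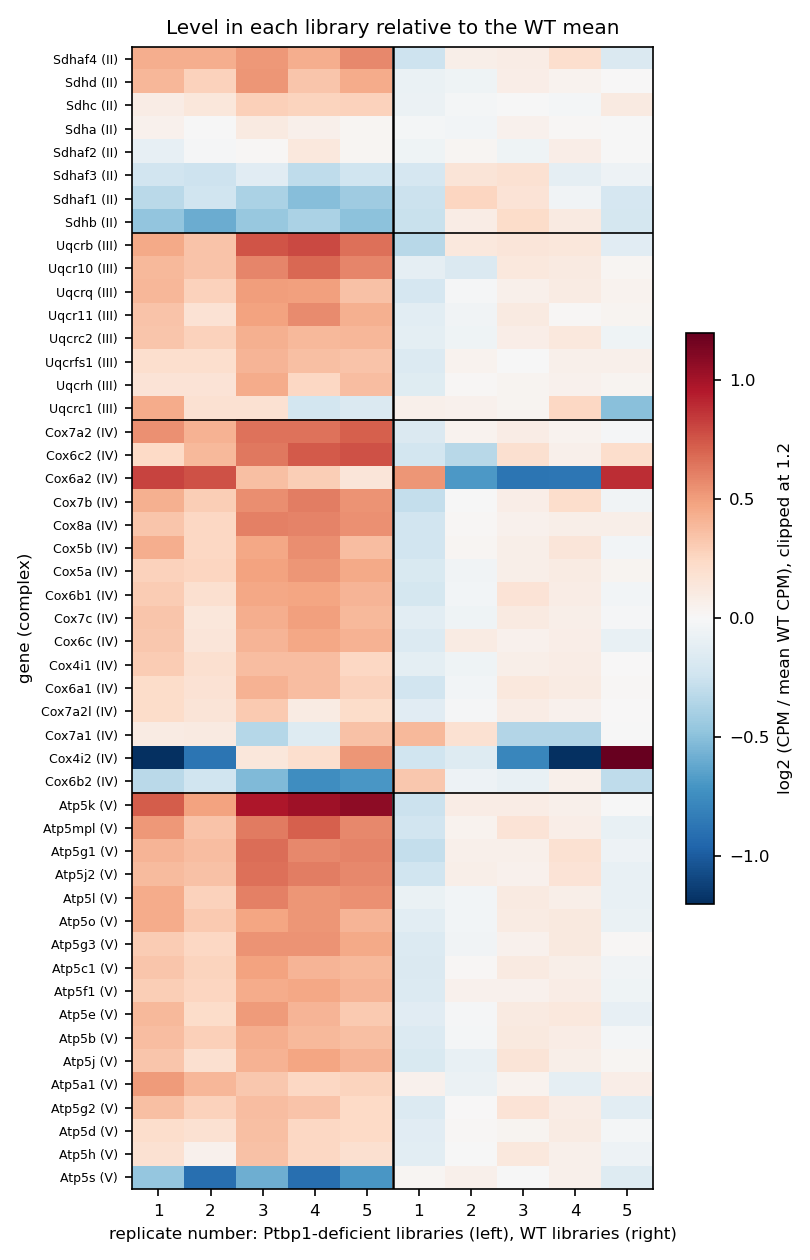
Colour gives log2 of the CPM in each library over the gene's mean in WT libraries, limited to 1.2 either way, for the 49 genes (rows, ordered by complex and fold change) in the deficient (left) and WT (right) libraries. Rows of complexes III to V are mostly red in all 5 deficient columns, with Cox6b2 and Atp5s blue and Cox6a2 split among the WT columns.

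Many respiratory genes carry binding sites of the factors NRF1 and GABP near their start, and 4 upstream regions are printed to show genes of different behaviour: Sdhb, which fell; Sdhd, its partner in complex II, which rose; Cox6a1, the member with the highest WT level per length; and Atp5k, the largest rise. Each holds the 250 bases before the RefSeq transcription start (GRCm38.p6), 5′ to 3′ on the gene's strand. The RefSeq starts of Sdhb, Sdhd, Cox6a1 and Atp5k lay 68, 37, 23 and 49 bases from those of the GENCODE annotation. By GENCODE the ends of the Sdhb, Cox6a1 and Atp5k stretches lie inside the gene. Positions below are counted from the RefSeq start. Capitals mark matches to the NRF1 consensus, the GABP (ETS) motif CCGGAAG or the YY1 motif AAGATGGCG on either strand. Sdhb lies at chr4:140961021-140961270, plus strand; Sdhd at chr9:50603850-50604099, minus strand; Cox6a1 at chr5:115348959-115349208, minus strand; and Atp5k at chr5:108434400-108434649, minus strand.
Sdhb: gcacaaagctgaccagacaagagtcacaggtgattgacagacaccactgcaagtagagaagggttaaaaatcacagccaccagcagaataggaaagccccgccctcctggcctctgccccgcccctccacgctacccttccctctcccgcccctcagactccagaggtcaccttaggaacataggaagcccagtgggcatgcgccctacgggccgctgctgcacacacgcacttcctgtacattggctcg
Sdhd: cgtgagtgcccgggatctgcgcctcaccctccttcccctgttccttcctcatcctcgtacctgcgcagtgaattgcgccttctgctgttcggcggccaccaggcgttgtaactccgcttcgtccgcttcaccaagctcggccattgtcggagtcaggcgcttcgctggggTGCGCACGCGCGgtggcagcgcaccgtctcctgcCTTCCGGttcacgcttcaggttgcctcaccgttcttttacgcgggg
Cox6a1: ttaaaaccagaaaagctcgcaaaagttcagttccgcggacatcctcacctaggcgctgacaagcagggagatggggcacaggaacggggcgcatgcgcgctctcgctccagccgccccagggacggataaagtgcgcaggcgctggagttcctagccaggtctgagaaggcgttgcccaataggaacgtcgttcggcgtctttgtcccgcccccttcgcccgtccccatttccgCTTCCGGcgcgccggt
Atp5k: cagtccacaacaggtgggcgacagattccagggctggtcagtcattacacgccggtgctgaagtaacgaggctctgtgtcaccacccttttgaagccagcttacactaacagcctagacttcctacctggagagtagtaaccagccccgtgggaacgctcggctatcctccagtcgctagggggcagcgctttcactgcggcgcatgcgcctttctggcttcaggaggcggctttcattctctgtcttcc
Sdhb and Atp5k had no match of these motifs in the 250 bases. Atp5k and Cox6a1 do hold gcgcatgcgc, the inner bases of the NRF1 consensus. The bases around it do not match the full consensus, so it is not in capitals. Sdhd had an NRF1 match at -80 to -69 and a GABP match at -46 to -40, counted from the start, and Cox6a1 had a GABP match at -16 to -10.

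RefSeq windows of 300 bases (250 before and 50 after a start) were matched to 38 of the 49 members by symbol and position. The start nearest to the GENCODE start was used, which lay up to 3643 bases away (Atp5d) and 1305 bases away for Atp5g2. An NRF1 match was found in 4 of 38 (10.5%), namely Sdhaf4, Sdhd, Uqcrc1 and Atp5g2, against 1.27% of 32851 windows and 2.54% of the 14394 windows of genes in the count table. A GABP match was found in 14 of 38 (36.8%), against 8.86% and 16.3%, and in no member did an NRF1 and a GABP match overlap. The YY1 motif was in 1 of 38, Atp5j2, against 1.40% and 2.67%. The SP1 motif GGGCGG, which is not in capitals above, was in 17 of 38 (44.7%), against 35.7% and 57.8%. Among the members with a window, an NRF1 match was in 3 of 29 that were higher, 0 of 4 that were lower and 1 of 5 that did not pass; a GABP match was in 10 of 29, 2 of 4 and 2 of 5. Sdhb, which was lower, and Atp5k, which was higher, each had a GABP match in the 300 bases but none within the 250 before the start. Their matches therefore lay in the 50 bases after the start or reached into them. A match is a description of the letters and does not show binding.

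In complex II the 4 subunits did not move alike: the iron-sulfur subunit gene Sdhb fell, both membrane anchor genes rose, and the flavoprotein gene Sdha did not pass. Sdhb (ENSMUSG00000009863, GRCm38 chromosome 4, 140961203 to 140979193, plus strand) had 47.2, 43.3, 47.9, 50.4 and 46.7 CPM in deficient replicates 1 to 5, against 54.6, 69.7, 76.3, 70.4 and 56.7 CPM in WT replicates 1 to 5. Every deficient library lay below every WT library, and among WT libraries replicates 1 and 5 were the lowest. The mean was 71.9% of the WT mean (log2 fold change -0.48, SE 0.0883, adjusted p = 0.001). Without WT replicates 1 and 5 the log2 fold change was -0.62 (adjusted p = 5.6e-06), and with the macrophage covariate it was -0.56 (adjusted p = 0.0038).

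Sdha, which binds the flavin and oxidizes succinate, had 238, 229.6, 249, 241 and 235 CPM in deficient replicates 1 to 5, against 227, 225, 239, 233 and 229 CPM in WT replicates 1 to 5. The groups overlapped, and the difference did not pass (log2 fold change 0.048, SE 0.0357, adjusted p = 0.3). Sdhc, an anchor of the complex in the membrane, had 41.7, 42.9, 47.6, 47.2 and 47.4 CPM in deficient replicates 1 to 5, against 37.3, 38.6, 39.0, 38.5 and 42.2 CPM in WT replicates 1 to 5. Deficient replicate 1 lay below WT replicate 5, and the others lay above all WT libraries (log2 fold change 0.21, SE 0.0517, adjusted p = 0.0055). Sdhc missed the threshold in FPKM, with a log2 fold change of 0.097 (adjusted p = 0.16). Sdhd, the other anchor, had 75.7, 69.5, 82.7, 72.1 and 78.0 CPM in deficient replicates 1 to 5, against 54.4, 55.3, 60.6, 58.9 and 57.5 CPM in WT replicates 1 to 5, with no overlap between groups (log2 fold change 0.40, SE 0.0522, adjusted p = 8.8e-05).

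Within each library, 1 Sdha count corresponded to 0.197 ± 0.00801 Sdhb counts in deficient libraries and 0.284 ± 0.0368 in WT libraries (SD, n = 5 each), a ratio that does not depend on scaling between libraries. Per Sdhd count there were 0.625 ± 0.0456 Sdhb counts in deficient libraries and 1.14 ± 0.136 in WT libraries. Neither ratio overlapped between groups. Per length, the order of the subunits also differed. Sdha stood at 75.6 ± 2.41 FPKM in deficient libraries, against 78.3 ± 2.14 FPKM in WT libraries; Sdhd at 55.8 ± 3.66 FPKM in deficient libraries, against 44.4 ± 1.14 FPKM in WT libraries; Sdhb at 35.4 ± 1.68 FPKM in deficient libraries, against 53.2 ± 7.31 FPKM in WT libraries; and Sdhc at 13.7 ± 0.758 FPKM in deficient libraries, against 12.8 ± 0.721 FPKM in WT libraries. Sdhd thus stood above Sdhb in deficient cells and below it in WT cells, by mean levels; in WT the ranges were 42.7 to 45.9 FPKM for Sdhd and 44.9 to 59.8 FPKM for Sdhb.

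The assembly factor genes of complex II also went different ways. Sdhaf1, a factor for the iron-sulfur clusters of Sdhb, had 9.88, 10.5, 9.53, 8.70 and 9.20 CPM in deficient replicates 1 to 5, against 10.4, 14.8, 13.9, 12.0 and 10.8 CPM in WT replicates 1 to 5. It fell (log2 fold change -0.37, SE 0.105, adjusted p = 0.013), with deficient replicate 2 just above WT replicate 1. Sdhaf4, an assembly factor that acts on Sdha, had 12.1, 12.1, 12.8, 12.1 and 13.3 CPM in deficient replicates 1 to 5, against 7.54, 9.44, 9.56, 10.3 and 7.93 CPM in WT replicates 1 to 5. It rose with no overlap between groups (log2 fold change 0.48, SE 0.0915, adjusted p = 0.0012). Sdhaf2, needed to attach flavin to Sdha, had 34.4, 36.3, 37.1, 40.2 and 37.3 CPM in deficient replicates 1 to 5, against 35.5, 37.2, 35.5, 38.8 and 36.6 CPM in WT replicates 1 to 5. The groups overlapped almost entirely (log2 fold change 0.013, SE 0.0479, adjusted p = 0.85). Sdhaf3 had 3.04, 2.99, 3.24, 2.88 and 3.02 CPM in deficient replicates 1 to 5, against 3.09, 3.97, 4.04, 3.29 and 3.40 CPM in WT replicates 1 to 5. It did not pass (log2 fold change -0.23, SE 0.109, adjusted p = 0.11), but it did without WT replicates 1 and 5 (log2 fold change -0.32, adjusted p = 0.043).

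**Figure D3:**
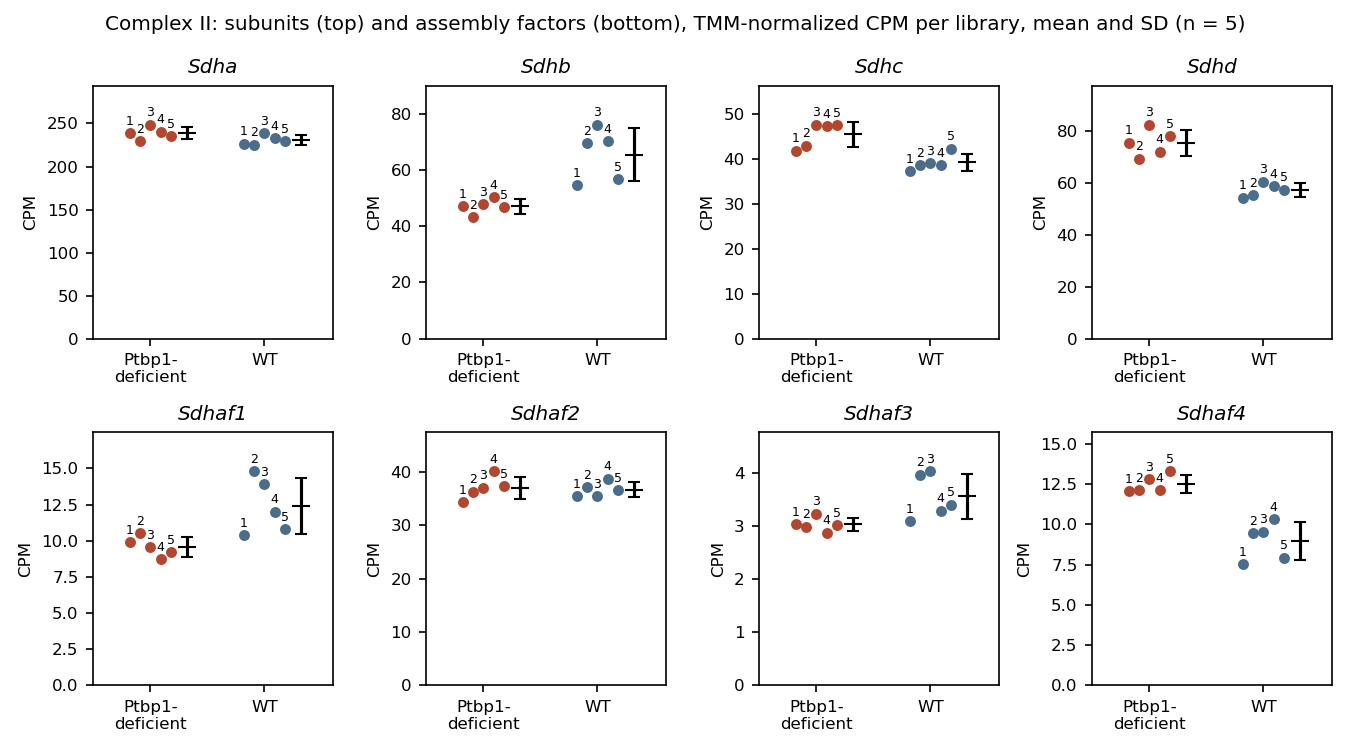
TMM-normalized CPM (y axis, from 0) of the 8 complex II genes in each deficient (red) and WT (blue) library, numbered by replicate, with mean and SD (n = 5 each). Sdhb is lower and Sdhd higher in every deficient library than in any WT library, and Sdha overlaps.

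In complex III, 7 of 8 subunit genes rose. Uqcrc2, a core subunit, had 127, 121, 135, 132 and 132 CPM in deficient replicates 1 to 5, against 92.5, 97.2, 106, 109.7 and 96.9 CPM in WT replicates 1 to 5, with no overlap (log2 fold change 0.36, SE 0.0523, adjusted p = 1.7e-04). Uqcr10, a small subunit, had 40.9, 39.6, 46.8, 50.4 and 46.8 CPM in deficient replicates 1 to 5, against 28.9, 27.8, 34.2, 33.7 and 31.7 CPM in WT replicates 1 to 5. Its groups were separate, with deficient replicates 1 and 2 the lowest of their group (log2 fold change 0.52, SE 0.0795, adjusted p = 2.6e-04). Uqcrq, which sits at the quinone-binding side, had 59.2, 54.6, 63.8, 63.5 and 57.3 CPM in deficient replicates 1 to 5, against 39.0, 44.4, 46.8, 48.2 and 46.4 CPM in WT replicates 1 to 5 (log2 fold change 0.41, SE 0.0636, adjusted p = 3.1e-04). Uqcr11 had 38.9, 34.5, 42.9, 45.6 and 41.3 CPM in deficient replicates 1 to 5, against 28.1, 29.9, 33.2, 31.0 and 31.5 CPM in WT replicates 1 to 5 (log2 fold change 0.40, SE 0.0724, adjusted p = 8.2e-04). Neither of these overlapped between groups. The largest rise of the complex was that of Uqcrb (70.5 ± 9.34 CPM in deficient libraries, against 46.2 ± 6.53 CPM in WT libraries; log2 fold change 0.61, adjusted p = 8.5e-04). The Rieske iron-sulfur protein gene Uqcrfs1 and the hinge subunit gene Uqcrh rose by 0.30 and 0.28 on the log2 scale, also without overlap.

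Uqcrc1, the other core subunit, cannot be read from the counts with confidence. It had 2.93, 2.44, 2.43, 1.85 and 1.90 CPM in deficient replicates 1 to 5, against 2.25, 2.23, 2.20, 2.55 and 1.52 CPM in WT replicates 1 to 5, from 95 to 188 counts per library, and did not pass (log2 fold change 0.10, SE 0.175, adjusted p = 0.67). In the FPKM values it was listed at 28.1 ± 0.394 FPKM in deficient libraries, against 25.9 ± 0.938 FPKM in WT libraries, and there it passed, at 0.11 on the log2 scale (adjusted p = 0.029). A second Ensembl identifier with the symbol Uqcrc1 (ENSMUSG00000107235) was listed at 26.8 ± 0.516 FPKM in deficient libraries, against 24.9 ± 0.644 FPKM in WT libraries and was not in the count table, whose gene rows leave out reads that were not unique. The same held for Atp5a1, the alpha subunit of ATP synthase, with 361 to 806 counts per library and a second identifier (ENSMUSG00000116276). Atp5a1 was higher in the counts (log2 fold change 0.35, adjusted p = 0.0029), and in FPKM at 87.2 ± 2.24 FPKM in deficient libraries, against 74.6 ± 3.54 FPKM in WT libraries, but its counts are likewise uncertain.

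In complex IV all 10 widely used subunit genes rose. Cox7a2, the common isoform of subunit 7A, had 48.2, 44.0, 51.7, 51.7 and 54.1 CPM in deficient replicates 1 to 5, against 29.3, 34.0, 35.0, 34.0 and 32.6 CPM in WT replicates 1 to 5. Its groups were far apart, and it had the smallest adjusted p of all 49 genes (log2 fold change 0.60, SE 0.0643, adjusted p = 2.1e-05). Cox5a had 62.0, 61.1, 71.5, 73.7 and 70.2 CPM in deficient replicates 1 to 5, against 44.9, 49.8, 53.9, 54.9 and 52.4 CPM in WT replicates 1 to 5 (log2 fold change 0.40, SE 0.0688, adjusted p = 5.8e-04). Cox8a, the common isoform of subunit 8, had 151, 142, 182, 181 and 175 CPM in deficient replicates 1 to 5, against 102, 120.5, 124, 125 and 126 CPM in WT replicates 1 to 5. WT replicate 1 lay well below the other WT libraries (log2 fold change 0.48, SE 0.0819, adjusted p = 6.2e-04). Cox4i1, the common isoform of the regulatory subunit 4, had 239.6, 222, 251, 251 and 231 CPM in deficient replicates 1 to 5, against 179, 187, 204, 207 and 195 CPM in WT replicates 1 to 5 (log2 fold change 0.30, SE 0.0521, adjusted p = 6.9e-04). None of these 4 overlapped between groups. The other 6, Cox5b, Cox6a1, Cox6b1, Cox6c, Cox7b and Cox7c, rose by 0.29 to 0.49 on the log2 scale, each without overlap. Cox7a2l, whose product helps to join complexes III and IV into supercomplexes, rose less (240.5 ± 13.7 CPM in deficient libraries, against 209 ± 12.1 CPM in WT libraries; log2 fold change 0.20, adjusted p = 0.0077). The pseudogene Cox6c2 was also called higher (1.88 ± 0.289 CPM in deficient libraries, against 1.27 ± 0.209 CPM in WT libraries; log2 fold change 0.57, adjusted p = 0.016), but it resembles Cox6c, and how the counting split their reads is not known.

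Of the 4 tissue-restricted isoforms of complex IV none was called higher and 1 was called lower, against 21.9% and 23.1% of all genes tested. Cox6b2, known from testis, had 3.80, 4.04, 3.30, 2.83 and 2.93 CPM in deficient replicates 1 to 5, against 5.96, 4.57, 4.46, 4.96 and 3.85 CPM in WT replicates 1 to 5. It fell (log2 fold change -0.50, SE 0.144, adjusted p = 0.014), with WT replicate 5 inside the deficient range, and missed the threshold in FPKM, at -0.38 on the log2 scale (adjusted p = 0.055). Cox7a1, known from heart and skeletal muscle, had 0.806, 0.813, 0.596, 0.677 and 0.957 CPM in deficient replicates 1 to 5, against 0.983, 0.853, 0.588, 0.588 and 0.751 CPM in WT replicates 1 to 5, and the groups overlapped (log2 fold change 0.033, SE 0.210, adjusted p = 0.91). Cox4i2, known from lung, was near the limit of detection at 0.0493, 0.141, 0.285, 0.298 and 0.374 CPM in deficient replicates 1 to 5, against 0.219, 0.233, 0.151, 0.0840 and 0.607 CPM in WT replicates 1 to 5 (log2 fold change -0.14, SE 0.554, adjusted p = 0.86). Cox8b, Cox8c and Cox7b2 have no row in the count table and were not analysed here.

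Cox6a2, the heart and skeletal muscle isoform of subunit 6A, depended on which WT libraries were used. It had 12.0, 11.7, 8.79, 8.42 and 7.58 CPM in deficient replicates 1 to 5, against 9.88, 4.26, 3.72, 3.76 and 12.7 CPM in WT replicates 1 to 5. WT replicates 1 and 5 lay among or above the deficient libraries, and WT replicates 2, 3 and 4 below all of them. With all libraries it did not pass (log2 fold change 0.50, SE 0.340, adjusted p = 0.26); without WT replicates 1 and 5 its log2 fold change was 1.30 (adjusted p = 7.7e-05), and without WT replicate 5 alone 0.84 (adjusted p = 0.028). The same WT libraries were the highest in macrophage, plasmacytoid and B cell markers, for example Siglech at 28.4, 17.1, 15.7, 15.6 and 74.4 CPM in WT replicates 1 to 5. In deficient replicates 1 to 5 Siglech was at 4.44, 3.41, 5.67, 6.65 and 5.45 CPM, below every WT library. Deficient replicates 1 and 2, the highest of their group in Cox6a2, had its lowest macrophage sums, 441 and 427 CPM. Itgad, which overlaps Cox6a2 in the annotation, had 157, 157, 169, 167 and 179.7 CPM in deficient replicates 1 to 5, against 232, 102, 88.9, 87.6 and 297 CPM in WT replicates 1 to 5, and whether the counting told their reads apart is not known. The part of these markers and of Itgad in the Cox6a2 values was not tested.

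Ratios of paired genes within a library were tested for 8 pairs by an exact two-sided permutation test, with p-values adjusted over the 8; the smallest p this design allows is 0.00794. Cox6b2 counts were 4.12%, 4.74%, 3.21%, 2.73% and 2.96% of Cox6b1 counts in deficient replicates 1 to 5, against 9.27%, 6.29%, 5.37%, 6.26% and 5.31% in WT replicates 1 to 5. The groups did not overlap (log2 difference -0.87, exact p = 0.00794, adjusted p = 0.0317). Cox7a2l counts were 506%, 528%, 503%, 432% and 448% of Cox7a2 counts in deficient replicates, against 647%, 608%, 633%, 636% and 640.4% in WT replicates. These did not overlap either (log2 difference -0.39, exact p = 0.00794, adjusted p = 0.0317). Both pairs missed the threshold when any 1 WT library was left out (adjusted p = 0.0635, exact permutation test). The other 6 pairs did not pass, with log2 differences of -0.56 (Cox7a1 to Cox7a2) to 0.38 (Cox6a2 to Cox6a1).

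**Figure D4:**
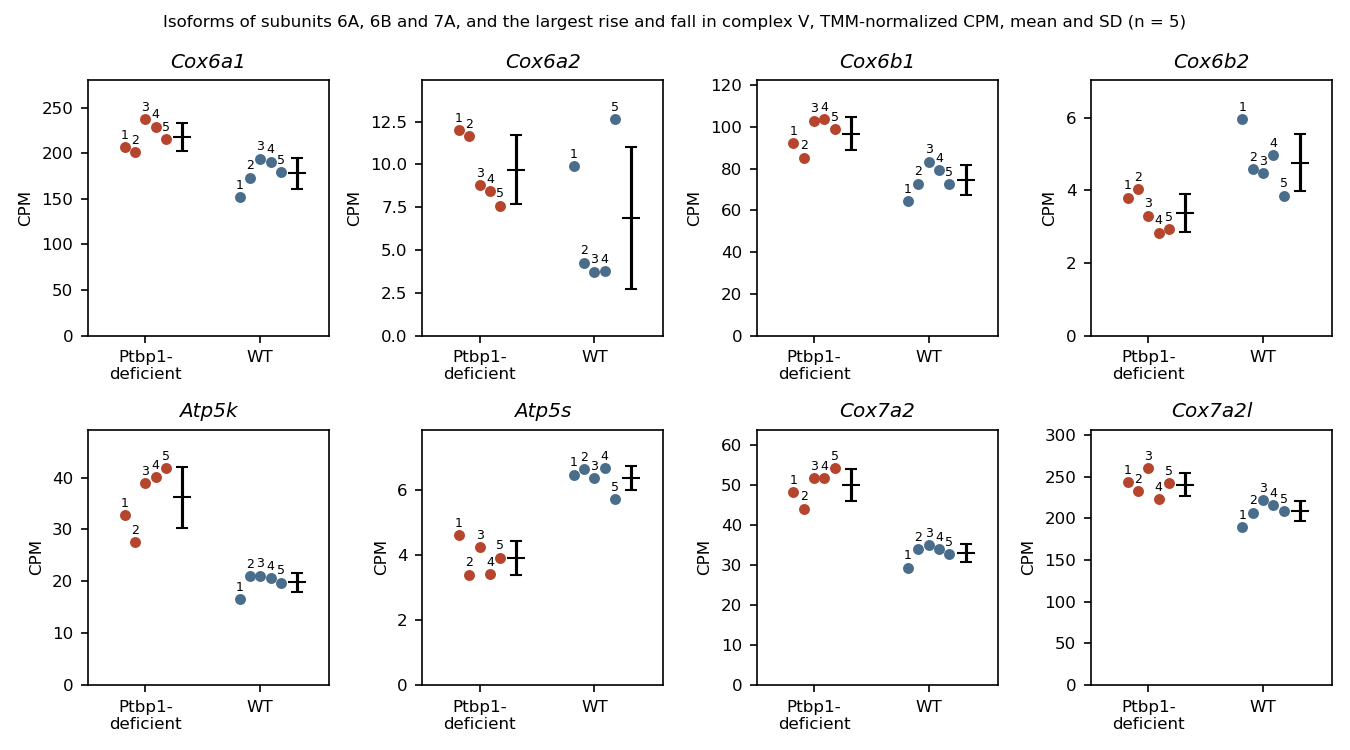
TMM-normalized CPM (y axis, from 0) of paired complex IV isoforms, Cox7a2l, Atp5k and Atp5s in each deficient (red) and WT (blue) library, numbered by replicate, with mean and SD (n = 5 each). Cox6a1, Cox6b1 and Cox7a2 are higher in deficient libraries, Cox6b2 and Atp5s lower, and Cox6a2 is high in WT replicates 1 and 5.

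In complex V all 16 subunit genes rose. The largest rise among the 49 genes was that of Atp5k, which encodes the membrane subunit e that helps ATP synthase to form dimers, with 32.7, 27.6, 38.9, 40.1 and 41.7 CPM in deficient replicates 1 to 5, against 16.6, 21.0, 21.1, 20.6 and 19.7 CPM in WT replicates 1 to 5. Deficient replicates 2 and 1 were the lowest of their group and still above every WT library (log2 fold change 0.87, SE 0.111, adjusted p = 7.3e-05). Atp5l, which encodes subunit g, a partner of subunit e, had 116, 103, 129, 123 and 124 CPM in deficient replicates 1 to 5, against 80.5, 83.2, 91.5, 89.2 and 80.0 CPM in WT replicates 1 to 5 (log2 fold change 0.49, SE 0.0633, adjusted p = 8.6e-05). Atp5o, which encodes the OSCP subunit of the peripheral stalk, had 75.7, 68.8, 77.0, 80.3 and 73.6 CPM in deficient replicates 1 to 5, against 50.9, 54.3, 59.4, 60.1 and 52.3 CPM in WT replicates 1 to 5 (log2 fold change 0.44, SE 0.0580, adjusted p = 9.7e-05). Atp5mpl, a small membrane proteolipid gene, had 63.7, 56.5, 68.7, 73.1 and 66.2 CPM in deficient replicates 1 to 5, against 37.9, 45.7, 49.8, 47.2 and 42.0 CPM in WT replicates 1 to 5 (log2 fold change 0.56, SE 0.0820, adjusted p = 2.0e-04). In each of these 4 the groups were separate.

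The catalytic beta subunit gene Atp5b was the most abundant by count (764 ± 27.9 CPM in deficient libraries, against 592 ± 45.0 CPM in WT libraries; log2 fold change 0.37, adjusted p = 2.8e-04). The F1 genes Atp5c1, Atp5d and Atp5e rose by 0.38, 0.25 and 0.37 on the log2 scale. The peripheral stalk genes Atp5f1, Atp5h and Atp5j rose by 0.38, 0.21 and 0.37, and the membrane subunit f gene Atp5j2 by 0.52. Atp5h was the smallest of these and did not pass without WT replicates 1 and 5 (log2 fold change 0.15, adjusted p = 0.07). Its groups overlapped, unlike those of the other 15 subunit genes. The ring subunit c is encoded by Atp5g1, Atp5g2 and Atp5g3, which give the same mature protein, and these rose by 0.53, 0.32 and 0.42.

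Atp5s, which encodes coupling factor B, was the one complex V member that fell. It had 4.60, 3.39, 4.25, 3.41 and 3.92 CPM in deficient replicates 1 to 5, against 6.46, 6.63, 6.36, 6.66 and 5.72 CPM in WT replicates 1 to 5. Every deficient library lay below every WT library (log2 fold change -0.70, SE 0.106, adjusted p = 2.5e-04), and without WT replicates 1 and 5 the log2 fold change was -0.74 (adjusted p = 3.9e-04). Atpif1, the inhibitor of ATP synthase, lies outside the symbol rule and was looked up after its values had been seen. It had 129 ± 19.9 CPM in deficient libraries, against 88.7 ± 10.4 CPM in WT libraries (log2 fold change 0.55, adjusted p = 0.0018).

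Per length, the levels of the 46 members in the FPKM table spanned 2.27 to 349.6 FPKM in deficient libraries and 4.25 to 299.7 FPKM in WT libraries, by group means. The highest in WT were Cox6a1 (349.6 ± 19.9 FPKM in deficient libraries, against 299.7 ± 20.6 FPKM in WT libraries), Atp5b (349 ± 12.8 FPKM in deficient libraries, against 288 ± 11.9 FPKM in WT libraries) and Atp5e (344 ± 24.6 FPKM in deficient libraries, against 277 ± 16.7 FPKM in WT libraries), and neighbours in this order differed in WT by less than the larger of their SDs. Atp5s was the lowest, at 2.27 ± 0.481 FPKM in deficient libraries, against 4.25 ± 0.767 FPKM in WT libraries. The median subunit of complex II stood at 45.6 FPKM in deficient libraries and 48.8 FPKM in WT libraries. The median of complex III was 71.8 FPKM in deficient libraries and 57.6 FPKM in WT libraries, that of complex IV was 136 FPKM in deficient libraries and 107 FPKM in WT libraries, and that of complex V was 110.1 FPKM in deficient libraries and 89.8 FPKM in WT libraries.

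Of the 4 partner genes tested 3 rose: Cycs, the electron carrier cytochrome c (118 ± 12.8 CPM in deficient libraries, against 67.4 ± 9.04 CPM in WT libraries; log2 fold change 0.81, adjusted p = 5.2e-05), Ndufa4, a subunit of complex IV (82.2 ± 5.74 CPM in deficient libraries, against 56.5 ± 5.36 CPM in WT libraries; log2 fold change 0.54, adjusted p = 8.8e-05), and Usmg5, a small subunit of ATP synthase (65.6 ± 7.38 CPM in deficient libraries, against 45.0 ± 5.12 CPM in WT libraries; log2 fold change 0.54, adjusted p = 6.0e-04). Cyc1, the cytochrome c1 subunit of complex III, did not pass (73.0 ± 2.10 CPM in deficient libraries, against 66.8 ± 4.80 CPM in WT libraries; log2 fold change 0.13, adjusted p = 0.057). Of the 6 mitochondrial-genome subunits of complexes III to V none was higher and 2 were lower, mt-Cytb (1753 ± 159 CPM in deficient libraries, against 2292 ± 265 CPM in WT libraries; log2 fold change -0.39, adjusted p = 0.004) and mt-Atp8 (6.50 ± 0.357 CPM in deficient libraries, against 7.88 ± 0.821 CPM in WT libraries; log2 fold change -0.28, adjusted p = 0.022). The counts of both lists stand against 21.9% of all genes tested called higher and 23.1% called lower. With the macrophage covariate, which cannot be fully separated from genotype, neither mt-Cytb nor mt-Atp8 passed (adjusted p = 0.061 and 0.26). The mt-Atp8 call was also missed in the FPKM values and without WT replicate 1 (adjusted p = 0.056). The counts of mt-Atp8 were very low for its level per length, 1209 ± 140.3 FPKM in deficient libraries, against 1336 ± 96.6 FPKM in WT libraries, and so were those of mt-Co2, mt-Co3 and mt-Atp6, so the count-based calls of these 4 genes are uncertain, as for Uqcrc1 and Atp5a1. The complex IV core gene mt-Co1 had 5880 ± 559.6 CPM in deficient libraries, against 5634 ± 417 CPM in WT libraries and did not pass (adjusted p = 0.56).

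The assembly factors outside the symbol rule were taken from lists of known factors, and the counts of these lists stand against 21.9% of all genes tested called higher and 23.1% called lower. Of 6 factors of complex III, 2 were higher and none lower (Uqcc2, log2 fold change 0.42, adjusted p = 4.1e-04; Bcs1l, log2 fold change 0.21, adjusted p = 0.035, which missed under most alternatives), a share of higher genes near that background without Bcs1l. Uqcc1 did not pass in the counts (log2 fold change -0.027, adjusted p = 0.82) but was lower in FPKM (log2 fold change -0.47, adjusted p = 0.0053). Of 23 factors of complex IV, 9 were higher and 1 lower (median log2 fold change 0.18). The smallest adjusted p-values were those of Coa5 (189.7 ± 21.3 CPM in deficient libraries, against 122 ± 5.86 CPM in WT libraries; log2 fold change 0.64, adjusted p = 3.1e-05), the heme A synthase gene Cox15 (log2 fold change 0.39, adjusted p = 6.6e-05) and Higd1a (log2 fold change 0.41, adjusted p = 8.2e-05). Cox11, which brings copper to complex IV, fell (6.46 ± 0.388 CPM in deficient libraries, against 8.44 ± 0.752 CPM in WT libraries; log2 fold change -0.39, adjusted p = 0.0029). Of 5 factors of complex V, Tmem242 (log2 fold change 0.38, adjusted p = 2.6e-04) and Tmem70 (log2 fold change 0.31, adjusted p = 2.2e-04) were higher and none lower in the counts. In FPKM Atpaf2 was lower (log2 fold change -0.23, adjusted p = 0.0032; in the counts log2 fold change -0.13, adjusted p = 0.09), and Tmem70 was on the other side of 0, at -0.21 (adjusted p = 0.37). Of the 3 carriers that exchange ATP, ADP and phosphate, Slc25a5 (log2 fold change 0.32, adjusted p = 4.0e-04) and Slc25a4 (log2 fold change 0.35, adjusted p = 0.0011) were higher and Slc25a3 did not pass (log2 fold change 0.059, adjusted p = 0.35).

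Of 15 regulators of respiratory genes, 2 were higher and 3 lower (median log2 fold change 0.020), no more than the 21.9% and 23.1% of all genes tested. Ppargc1a, the coactivator PGC-1alpha of mitochondrial biogenesis, had 0.247, 0.469, 0.492, 0.344 and 0.286 CPM in deficient replicates 1 to 5, against 1.86, 1.96, 1.37, 1.65 and 1.31 CPM in WT replicates 1 to 5. It was low in both groups, and every deficient library lay below every WT library (log2 fold change -2.14, SE 0.230, adjusted p = 2.1e-05). Tfb2m, a transcription factor of the mitochondrial genome, fell (16.4 ± 0.884 CPM in deficient libraries, against 19.6 ± 0.663 CPM in WT libraries; log2 fold change -0.26, adjusted p = 0.0021), as did Yy1 (log2 fold change -0.15, adjusted p = 0.041), which missed under several alternatives. Lrpprc and Slirp, which together stabilize mitochondrial mRNAs, rose (log2 fold change 0.24, adjusted p = 0.0013 and log2 fold change 0.43, adjusted p = 0.0028). Nrf1 (log2 fold change -0.031, adjusted p = 0.65) and Gabpa (log2 fold change 0.042, adjusted p = 0.39), whose motifs were searched above, did not pass, nor did Tfam, Esrra or Myc. Pprc1 and Polrmt did not pass in the counts (adjusted p = 0.29 and 0.059). In FPKM both were lower (log2 fold change -0.38, adjusted p = 0.0085 and log2 fold change -0.23, adjusted p = 0.022). Of 18 other mitochondrial proteins, 12 were higher and 1 lower, with a median of 0.19. The outer membrane channel genes Vdac2 (230.5 ± 18.4 CPM in deficient libraries, against 143 ± 8.82 CPM in WT libraries; log2 fold change 0.69, adjusted p = 5.7e-06) and Vdac3 (log2 fold change 0.43, adjusted p = 2.2e-05) and the import receptor gene Tomm70a (log2 fold change 0.49, adjusted p = 2.7e-05) had the smallest adjusted p-values, and the protease gene Lonp1 was lower (log2 fold change -0.11, adjusted p = 0.04), a call that was lost in 7 of the 10 fits that left out 1 library. Timm44, an import motor gene among the 12, was just past the threshold (log2 fold change 0.13, adjusted p = 0.049) and on the other side of 0 in FPKM (log2 fold change -0.016, adjusted p = 0.85); the call was also lost in 8 of the 10 fits without 1 library. Tomm40, Phb and Immt, also among the 12, missed the threshold in FPKM (adjusted p = 0.25, 0.28 and 0.42). Timm44, Tomm40, Phb, Immt, Pprc1, Polrmt, Uqcc1 and Atpaf2 were chosen after their values had been seen.

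**Figure D5:**
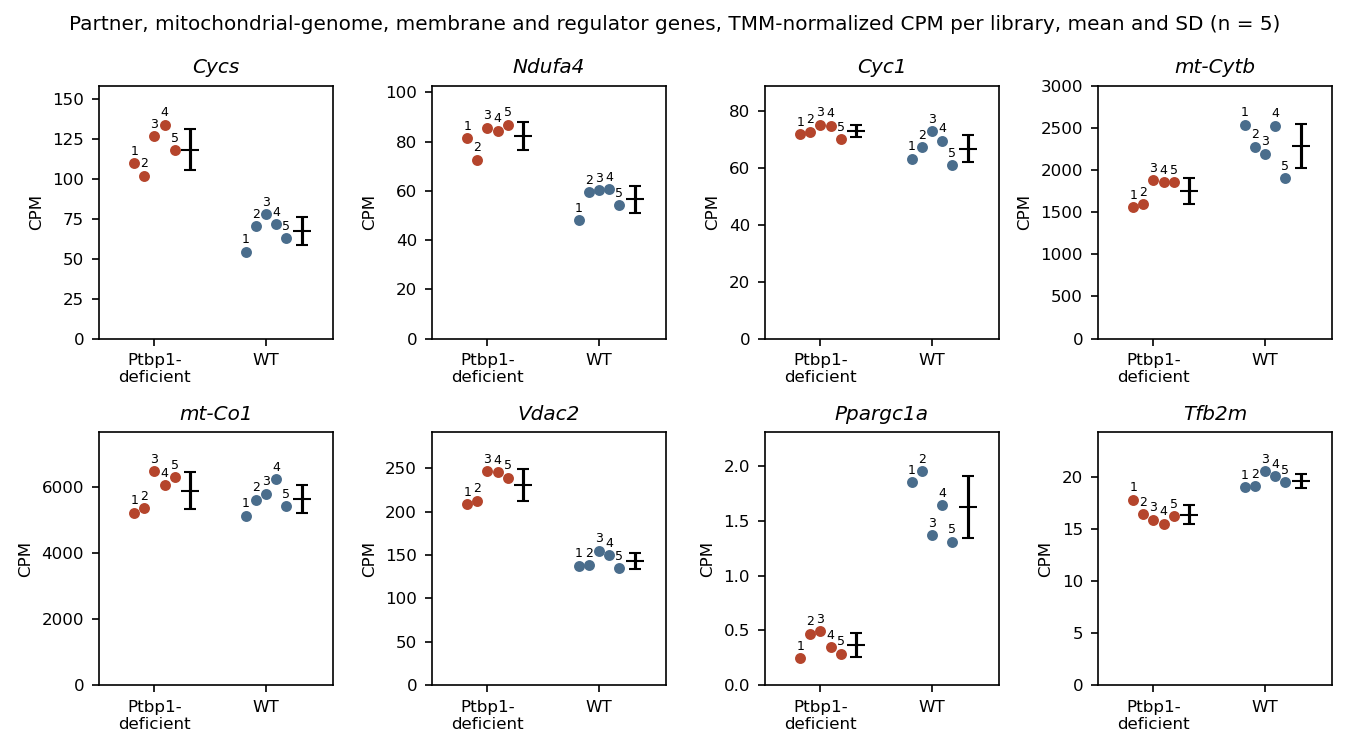
TMM-normalized CPM (y axis, from 0) of 8 genes outside the symbol rule in each deficient (red) and WT (blue) library, numbered by replicate, with mean and SD (n = 5 each). Cycs, Ndufa4 and Vdac2 are higher and Ppargc1a and Tfb2m lower in every deficient library than in any WT library, mt-Cytb is lower in all of them, and Cyc1 and mt-Co1 overlap.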

How the data were processed

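Poly(A) RNA of 10 libraries was sequenced as paired 150 bp reads, per the labels' protocols. The authors deposited raw counts per gene and FPKM values. HISAT2, StringTie and DESeq2 are named in the submitters' processing notes without versions, with the human build GRCh38, although the identifiers are mouse Ensembl ones. The sources used here name no counting tool, strand setting or FPKM program; the 15 members that overlap another counted gene are therefore uncertain. In the deposited count table reads that were not unique (4.51% to 5.08%), ambiguous (1.78% to 1.94%) or outside genes (17.2% to 22.2%) have rows of their own and were left out. All gene rows hold at least 2 counts in every library, and the deposited FPKM table lists values of 1 FPKM or more.

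Symbols and coordinates came from GENCODE M21 (GRCm38). Counts were filtered with filterByExpr (18248 genes kept, 930 removed), scaled by TMM and tested with edgeR 4.0.16 (quasi-likelihood, genotype only, limma 3.58.1, R 4.3.3); p-values were adjusted by the Benjamini-Hochberg method across those genes. FPKM values were tested with limma on log2(FPKM + 1). On simulated data of 18248 genes for this comparison, 50 altered genes per size, the test recovered 3 at a fold of 1.2, 21 at 1.35, 36 at 1.5 and 42 at 2, and made 0 false calls. In the real data 21.9% of genes were called higher and 23.1% lower, a far larger share than was altered in the simulation. The adjustment of p-values depends on that share, so these recovery and false-call numbers do not carry over to the real comparison. Isoform ratios used log2 of counts plus 0.5. Promoter windows came from RefSeq (GRCm38.p6). The NRF1 search used the full consensus with its alternative bases; it replaced a shorter, looser core after the matches of that core, found in more members and more windows, had been seen.

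The members and lists were chosen with earlier results of these data known. Values per library are given for the 4 called members of each complex with the smallest adjusted p, every member called lower or not called, the restricted isoforms and Ptbp1; other lists give up to 3 called genes and those called against the majority. Alternatives were RLE and upper-quartile scaling, DESeq2 1.42.0, limma-voom, other filters, FPKM, a replicate block, 2 covariates and left-out libraries.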

Additional observations from a re-analysis of the deposited data

Results flagged for a closer look

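In 5 of 148 groups screened (74 genes in 2 genotypes), 1 library stood apart from the other 4 of its group by Dixon's criterion; chance flags about 1 in 20 groups. WT replicate 1 was the lowest WT library for Uqcrh at 71.0 CPM (next 79.3 CPM), for Cox8a at 102 CPM (next 120.5 CPM) and for Usmg5 at 36.3 CPM (next 46.2 CPM). All 3 genes were called higher in deficient cells, and they were still called without that library. WT replicate 5 was the highest for Cox4i2 at 0.607 CPM, and WT replicate 3 for the complex III assembly factor gene Bcs1l at 11.9 CPM.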

How the results depend on the processing

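Of the 42 called members, 35 (32 higher, 3 lower) kept their call at an adjusted p of 0.05 in every one of the 24 alternative fits that gave them a value; Atp5s had a value in 23, being too low for the FPKM fit with a mean of at least 5. Sdhc, Cox6b2, Atp5d and Atp5g1 missed in the FPKM fits, Cox7a2l, Atp5a1 and Atp5h with the macrophage covariate, and Atp5h also without WT replicates 1 and 5. The counts of members called stayed within 36 to 39 higher and 2 to 5 lower. Lower members numbered 2 at an adjusted p of 0.01 and 2 in FPKM with a mean of at least 5. At 0.01 complex II had 1 lower member and complex IV 0, and complex IV also had 0 in all 3 FPKM fits and complex V 0 with the mean filter. All genes called higher numbered 2435 in FPKM with either pseudocount and 2082 with the mean filter, which left 2451 called lower, against 3998 and 4216 in the counts, where more genes were tested.

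Same-numbered libraries had correlations of -0.0962 to 0.114 in their deviations, with 1 of 5 over 0.1. A pairing by number was thus not seen, but this check cannot show that there was none. With a replicate block 38 members were higher and 4 lower, and Bcs1l, mt-Atp8, Yy1 and Lonp1 missed.

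The Cox6b2 to Cox6b1 difference ran from -0.98 to -0.73 with 1 library left out (-0.94 to -0.73 where it missed) and was -0.78 without WT replicates 1 and 5; Cox7a2l to Cox7a2 ran from -0.43 to -0.35 (-0.41 to -0.38) and was -0.38. Atp5g1 to Atp5g2 ran from 0.17 to 0.25 and passed without deficient replicate 1 (0.25). Atp5g1 to Atp5g3 was -0.094 in FPKM, and Cox4i2 to Cox4i1 was 0.098 without WT replicates 1 and 5, both on the other side of 0. Cox4i2 and Cox7a1 are not listed in FPKM, so their ratios were not run there.

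Of the members and named list genes that were refitted, the others that changed sign had not passed, except Tmem70 and Timm44. In FPKM (pseudocount 1, 0.1, and 1 with the mean filter) Sdha was at -0.050, -0.051 and -0.050, Sdhaf2 at -0.046, -0.050 and -0.046, Tmem70 at -0.21, -0.22 and -0.21, and Timm44 at -0.016, -0.017 and -0.016. Uqcc1 was at 0.020 without deficient replicates 1 and 2 and -0.076 to 0.023 with 1 library left out. Sdhaf2 was at -0.030 with upper-quartile scaling, -0.0050 without WT replicates 1 and 5, and -0.022 to 0.036 with 1 library left out. Uqcrc1 was at -0.042 with voom, -0.29 with the macrophage covariate, -0.018 without WT replicates 1 and 5, -0.063 without deficient replicates 1 and 2, and -0.0017 to 0.17 with 1 left out. Cox7a1 was at -0.015 with upper-quartile scaling, -0.019 without deficient replicates 1 and 2, and -0.067 to 0.16 with 1 left out. Cox4i2 was at 0.43 with voom, 1.46 with the macrophage covariate (adjusted p = 0.043), 0.31 with the outside-genes covariate, 0.61 without WT replicates 1 and 5, 0.30 without deficient replicates 1 and 2, and -0.39 to 0.46 with 1 left out. Cox6a2 also passed with voom (1.00) and with the outside-genes covariate (0.98). Where a sign or call changed, the cause was not tested unless named. At low levels, as for Cox4i2, counting error limits the values.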

Other observations

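Ppargc1b, the relative of Ppargc1a, had 2.14, 1.99, 2.15, 2.71 and 3.11 CPM in deficient replicates 1 to 5, against 2.54, 0.833, 0.799, 0.555 and 3.76 CPM in WT replicates 1 to 5. WT replicates 1 and 5 stood at the level of the deficient libraries and WT replicates 2, 3 and 4 below it, the same split of WT libraries as in Cox6a2, and it did not pass (log2 fold change 0.51, SE 0.459, adjusted p = 0.4). WT replicates 1 and 5 were also the highest WT libraries in macrophage and plasmacytoid markers. All deficient libraries lay below every WT library in the summed level of either marker list. The part of those markers in the Ppargc1b values was not tested.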
